A study of Mus musculus with 11 samples.

Results

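The 8 genes described here are markers of lipid-associated macrophages: Trem2, Gpnmb, Cd63, Cd9, Spp1, Lpl, Fabp5 and Atp6v0d2. They were taken from the count table by gene name, and each name matched 1 of its 55414 genes. All 8 passed the filter on low counts, which left 17038 genes in the test. RNA was measured by poly(A) RNA sequencing of whole liver in 11 samples, all from male mice and all Clec4f-DTR, a genotype in which the Clec4f promoter drives a receptor for diphtheria toxin. Clec4f is a gene of Kupffer cells, the resident macrophages of the liver. Diets began at 8 weeks of age and lasted 16 weeks. The chow group had 3 livers. On western diet with alcohol (WDA), 4 livers came from mice given saline injections (saline livers) and 4 from mice given diphtheria toxin (DT) injections (DT livers). All 3 groups carry the receptor and no group received toxin without it, so an effect of the toxin itself cannot be told apart from the loss of Clec4f-expressing cells. No injection is named in the chow titles, so diet and injection cannot be told apart in comparisons with chow livers. Dose and timing of the injections are not given in the sources used here.

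Lipid-associated macrophages gather around lipid-laden and dying cells in fatty liver, adipose tissue and atherosclerotic vessels. They arise largely from recruited monocytes and carry genes for sensing lipid at the cell surface, taking it up, and breaking it down in lysosomes. None of the 8 genes is exclusive to them. Spp1 and Cd9 are also made by bile duct epithelium, Lpl by fat and muscle cells, and Cd63 by most cells, so a level in whole liver sums several sources. In such bulk samples, fewer cells of a type and less RNA per cell cannot be told apart.

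The libraries held 43995217 to 58089531 counts, and a count of 3, taken as the detection limit for counting error, came to 0.0398 to 0.0773 CPM, the counts scaled to library size. Each of the 8 genes was above that limit in every liver. Clec4f, the check of the depletion, was lower in each DT liver than in the 7 others, with a group mean of 9.48 CPM against 45.9 CPM in saline livers (log2 fold change -2.28, SE 0.24, adjusted p = 0.00125, DT against saline, edgeR's quasi-likelihood test). Its highest DT value, 15.2 CPM, was that of DT liver 2. Cell-type sources were checked with marker lists, whose values are given after those of the 8 genes. Values are CPM normalised with the trimmed mean of M values (TMM), and a gene is called, or said to have risen or fallen, when its Benjamini-Hochberg adjusted p in edgeR's quasi-likelihood test was below 0.05. The labels do not say whether the samples of a group are separate animals, so p-values measure only the spread between these samples, which may be technical. Members of other gene lists that are singled out below were chosen after their values were seen, beyond the 4 with the smallest p.

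The promoters of the 4 genes with the greatest rise from saline to DT livers are shown because these genes rose together. They come from the RefSeq promoter table (GRCm38.p6), which held 5 of the 8 genes (Trem2, Gpnmb, Cd63, Cd9 and Spp1). Fabp5, Lpl and Atp6v0d2 are named only. Each run goes from 250 bases before the start site to 30 bases after it. Trem2 is at chr17:48346151-48346430, Gpnmb at chr6:49036268-49036547, Cd63 at chr10:128909095-128909374 and Spp1 at chr5:104434861-104435140, all on the plus strand. Capitals mark a match to a motif that was searched for on both strands.
Trem2: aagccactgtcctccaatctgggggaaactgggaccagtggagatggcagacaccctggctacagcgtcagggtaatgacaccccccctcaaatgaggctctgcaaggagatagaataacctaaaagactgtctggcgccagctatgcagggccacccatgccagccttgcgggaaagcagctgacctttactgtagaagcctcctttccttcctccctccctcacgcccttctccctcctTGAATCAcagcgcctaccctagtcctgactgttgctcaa
Gpnmb: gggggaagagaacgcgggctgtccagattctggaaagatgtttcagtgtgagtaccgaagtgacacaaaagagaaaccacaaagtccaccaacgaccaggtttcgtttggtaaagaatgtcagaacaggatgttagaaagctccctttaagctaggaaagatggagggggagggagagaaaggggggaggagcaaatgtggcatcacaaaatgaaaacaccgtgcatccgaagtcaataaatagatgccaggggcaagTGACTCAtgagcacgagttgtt
Cd63: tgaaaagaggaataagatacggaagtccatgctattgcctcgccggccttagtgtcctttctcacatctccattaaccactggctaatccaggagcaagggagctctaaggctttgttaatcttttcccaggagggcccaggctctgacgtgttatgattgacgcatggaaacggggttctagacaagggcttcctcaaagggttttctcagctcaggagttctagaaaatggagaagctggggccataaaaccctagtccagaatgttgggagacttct
Spp1: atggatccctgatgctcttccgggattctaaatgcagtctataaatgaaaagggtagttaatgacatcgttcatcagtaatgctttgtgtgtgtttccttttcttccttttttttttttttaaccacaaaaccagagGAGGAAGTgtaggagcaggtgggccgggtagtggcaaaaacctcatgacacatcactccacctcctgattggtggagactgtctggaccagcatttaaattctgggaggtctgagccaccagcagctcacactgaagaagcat
The AP-1 motif was searched for in the loose form TGANTCA, with any base at N. In Trem2 the capitals mark TGAATCA, a match to this form with A at N, with its first base 9 bases before the start site. Gpnmb has the match TGACTCA, with C at N, which begins at base 9 of the transcript. AP-1 is a family of factors induced by stress and activation signals in many cells. Spp1 has a match to GAGGAAGT, a motif of PU.1, the factor of the myeloid lineage, with its first base 113 bases before the start site. No searched motif was found in the Cd63 run or in that of Cd9, and Spp1's second window held none. The motifs also included the E-box CACGTG, the MiT/TFE box TCANGTGA and DR1, the direct repeat bound by PPAR with RXR. The AP-1 motif in this loose form was in windows of 2 of the 5 genes, and in 7.81% of all 32851 promoter windows of 300 bases. The PU.1 motif was in 1 of the 5 genes and in 3.20% of all windows. For the E-box, the MiT/TFE box and DR1 the shares of all windows were 7.15%, 4.18% and 0.0396%. The E-box and the MiT/TFE box can overlap each other. A match describes the letters in these windows and no binding was measured.

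Across the groups, all 8 genes had a higher mean in saline than in chow livers and a higher mean in DT than in saline livers. From chow to saline livers, Lpl alone was called, so 1 of 8 rose, where 2.45% of all genes tested rose. The median log2 fold change of the 8 was 0.69, against 0.00 over all genes. From saline to DT livers 6 of 8 rose, where 14.3% of all genes rose, with a median of 2.00 against 0.02. From chow to DT livers 8 of 8 rose, where 14.8% of all genes rose, with a median of 3.14 against -0.02. These shares of all genes are also the background for the gene lists below. The 8 genes and the lists were chosen with earlier results of these data known. The contrast with all genes is therefore a description and no test. Of the 17038 genes tested, 533, 1298 and 1391 fell in the 3 comparisons, in the order given. The 3 comparisons share livers, so their results are not independent of each other. The DT livers were not alike: for 7 of the 8 genes DT liver 2 lay within the range of the saline livers, and for Trem2 it lay above them.

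**Figure D1:**
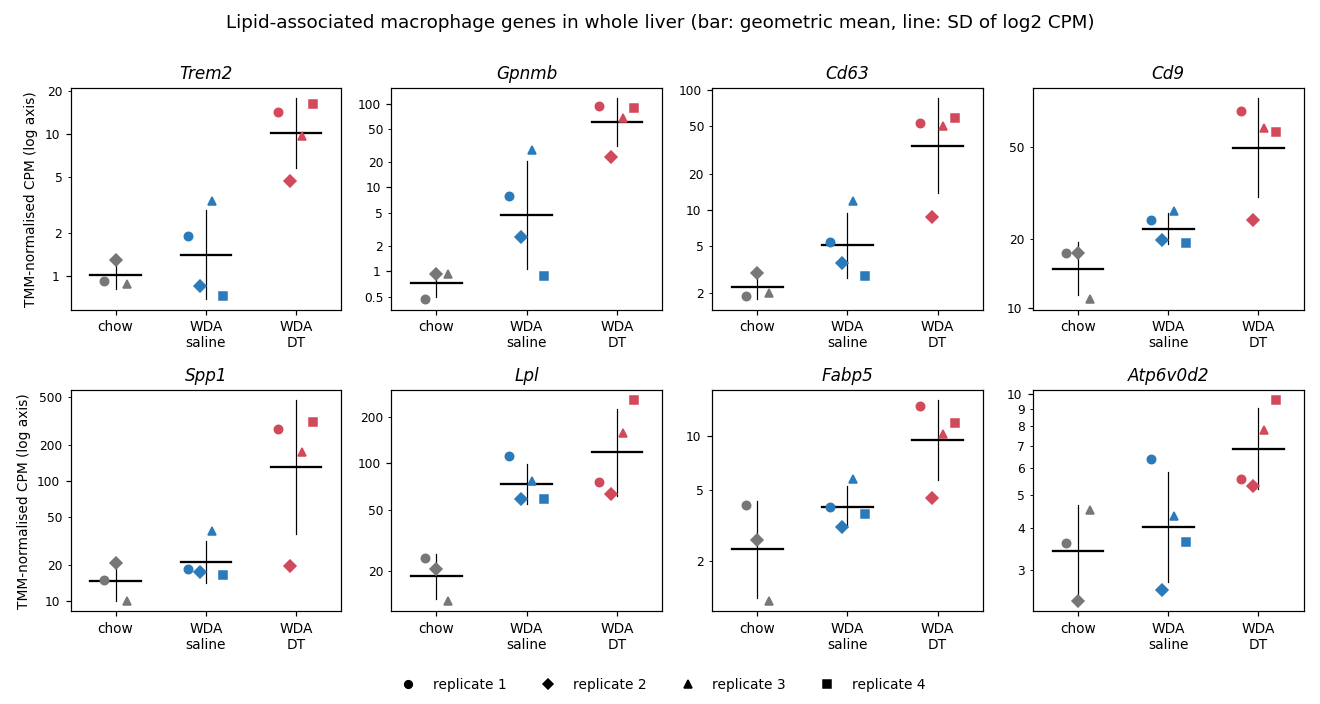
TMM-normalised CPM of the 8 genes in each liver, on a log axis, for chow (n = 3), WDA with saline (n = 4) and WDA with DT (n = 4). Points are livers with the replicate as the symbol, the bar is the geometric mean and the line 1 SD of log2 CPM to each side. DT livers 1, 3 and 4 are above all saline livers for 6 of the 8 genes, and DT liver 2 is the lowest DT liver for each gene.

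Trem2 (ENSMUSG00000023992, chromosome 17) encodes a surface receptor of macrophages for lipids and lipoproteins, and is the gene most used to name these cells. The chow livers, in replicate order, had 0.927, 1.31 and 0.877 CPM and the saline livers 1.92, 0.854, 3.40 and 0.724 CPM. The DT livers had 14.3, 4.66, 9.67 and 16.3 CPM. All 4 DT livers were above all 7 others, whereas chow and saline livers overlapped. Trem2 was the only one of the 8 whose DT and saline livers did not overlap, and over all genes 9.33% were higher in DT livers without overlap. Between DT and saline livers the difference was 2.70 on the log2 scale (SE 0.51, adjusted p = 0.00774, edgeR's quasi-likelihood test), and between DT and chow livers it was 3.43 (SE 0.59, adjusted p = 0.00479). Saline and chow livers were not called different (0.73, SE 0.55, adjusted p = 0.50).

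TREM2 signals through the adaptor TYROBP (DAP12) and the kinase SYK, and APOE and CLU are among its ligands. Of 11 such genes, with the sheddases Adam10 and Adam17, 3 rose from saline to DT livers and 0 fell, where 14.3% of all genes rose. These were Card9 (log2 fold change 1.55, adjusted p = 0.0252, edgeR's quasi-likelihood test), an adaptor downstream of SYK, the inositol phosphatase gene Inpp5d (0.92, 0.0432) and Syk (0.74, 0.0448). Tyrobp, the adaptor gene, was at 13.5 to 18.9 CPM in saline livers and 14.4 to 26.5 CPM in DT livers, a difference of 0.29 that was not called (adjusted p = 0.250). The ligand gene Apoe, which hepatocytes make in bulk, was not called either (-0.52, adjusted p = 0.165). From chow to DT livers 6 of the 11 rose, and Tyrobp (0.81, adjusted p = 0.0135) was among them. From chow to saline livers edgeR called 0 of the 11, with 2 at an unadjusted p below 0.05 and 0 called by DESeq2 or limma-voom. Of the other genes of the TREM family, 5 were found in the count table by name. Of these, 2 were abundant enough to test, and Treml2 rose from chow to DT livers (1.67, adjusted p = 0.0348).

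Gpnmb (ENSMUSG00000029816, chromosome 6) encodes a glycoprotein of lysosomes and the cell surface, made by macrophages loaded with lipid. It was near its lowest in chow livers, at 0.464, 0.941 and 0.923 CPM. Saline livers 1 to 4 had 7.91, 2.54, 28.1 and 0.894 CPM, and DT livers 1 to 4 had 94.0, 23.0, 66.8 and 89.1 CPM. The saline livers were thus spread widely: saline liver 4 lay within the chow livers, and saline liver 3 lay above DT liver 2. With a mean of 9.87 ± 12.5 CPM (SD, n = 4) in saline livers, the coefficient of variation was 127%. From saline to DT livers Gpnmb rose by 2.79 on the log2 scale (SE 0.85, adjusted p = 0.0395, edgeR's quasi-likelihood test). When each liver was left out in turn, the call held in 2 of 11 refits, those without saline liver 3 or DT liver 2, and the highest adjusted p of the other 9 was 0.0955, without DT liver 4. Of all 20 refits it held in 9. It was lost without a filter on low counts (adjusted p = 0.120) and with only the compared groups (0.0711). Against chow livers the rise of 6.44 (SE 1.19, adjusted p = 0.00605) was the largest of the 8 genes, and all DT livers were above all chow livers. The difference of 3.66 between saline and chow livers was not called by edgeR (SE 1.07, adjusted p = 0.0748). DESeq2 called it (adjusted p = 0.00404), as did edgeR without saline liver 4 (4.04, adjusted p = 0.0318).

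Cd63 (ENSMUSG00000025351, chromosome 10) encodes a tetraspanin of late endosomes, lysosomes and exosomes. Chow livers had 1.91, 2.95 and 2.03 CPM, saline livers 5.40, 3.62, 11.8 and 2.81 CPM, and DT livers 53.2, 8.70, 49.8 and 58.8 CPM. DT livers 1, 3 and 4 were far above the rest, and DT liver 2 was between the 2 highest saline livers. The rise from saline to DT livers was 2.85 on the log2 scale (SE 0.57, adjusted p = 0.00877, edgeR's quasi-likelihood test), and from chow to DT livers it was 4.21 (SE 0.69, adjusted p = 0.00408). Saline and chow livers were not called different (1.36, SE 0.62, adjusted p = 0.239).

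Cd9 (ENSMUSG00000030342, chromosome 6) encodes a tetraspanin of the plasma membrane that organises receptors and integrins. It was at 17.3, 17.3 and 10.9 CPM in chow livers, at 24.2, 19.8, 26.2 and 19.1 CPM in saline livers, and at 71.9, 24.1, 60.7 and 58.3 CPM in DT livers. All saline livers were above all chow livers, as for 14.8% of all genes, but the difference of 0.56 was not called (SE 0.31, adjusted p = 0.335, edgeR's quasi-likelihood test). From saline to DT livers Cd9 rose by 1.27 (SE 0.28, adjusted p = 0.0124), and from chow to DT livers by 1.83 (SE 0.32, adjusted p = 0.00503). Of 10 other tetraspanin genes tested, 3 rose from saline to DT livers and 1 fell, where 14.3% of all genes rose. Tspan8 (4.09, adjusted p = 0.00633) is an epithelial tetraspanin, Cd37 (1.00, 0.0175) one of leukocytes, and Tspan3 (1.14, 0.0365) is widely made. Cd81, a close relative of Cd9, fell by 0.52 (adjusted p = 0.0137). The tetraspanins called thus went in both directions. Cd9 overlaps a transcript of the opposite strand, Gm26728, in the mouse annotation of an earlier build, and the strand setting of the counts is not given in the sources used here, so their reads cannot be told apart.

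Spp1 (ENSMUSG00000029304, chromosome 5) encodes osteopontin, a secreted ligand of integrins and CD44. Chow livers had 14.9, 20.8 and 9.92 CPM and saline livers had 18.3, 17.6, 38.6 and 16.4 CPM. DT livers had 273, 19.7, 174 and 313 CPM. DT liver 2 was at the level of the chow and saline livers, and the other 3 were far above all of them. Spp1 had the largest rise of the 8 from saline to DT livers, 3.10 on the log2 scale (SE 0.65, adjusted p = 0.0102, edgeR's quasi-likelihood test). Against chow livers it rose by 3.68 (SE 0.75, adjusted p = 0.00786), and it is the one gene of the 8 in which DT and chow livers overlapped, where 14.8% of all genes were higher without overlap. Saline and chow livers were not called different (0.58, SE 0.66, adjusted p = 0.682). Of 9 receptor genes for osteopontin, 3 rose from saline to DT livers, where 14.3% of all genes rose. These were Itga5 (0.94, adjusted p = 0.00407), Itga8 (2.06, 0.0196) and Itgb5 (0.43, 0.0378), all integrin subunits. Cd44 was not called (0.40, adjusted p = 0.300). The other genes of the SIBLING family of bone matrix proteins (Ibsp, Dmp1, Dspp and Mepe) were not tested: 3 had 0 counts in all 11 livers and Dmp1 had 4 counts in 1 liver. Spp1 overlaps Gm42793 on the same strand in the earlier annotation.

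Lpl (ENSMUSG00000015568, chromosome 8) encodes lipoprotein lipase, which frees fatty acids from circulating triglyceride and is scarce in healthy adult liver. It was at 24.1, 20.7 and 12.6 CPM in chow livers and at 111, 58.2, 76.2 and 58.3 CPM in saline livers. DT livers had 75.4, 63.3, 157 and 257 CPM. All saline livers were above all chow livers, and DT livers 1 and 2 lay within the saline range. Lpl differed from the other 7 in its call from chow to saline livers, where it rose by 1.99 on the log2 scale (SE 0.47, adjusted p = 0.0310, edgeR's quasi-likelihood test). Its difference of 0.86 between DT and saline livers was not called (SE 0.41, adjusted p = 0.144), and neither was that of Atp6v0d2. With each liver left out in turn, the call between saline and chow livers held in 5 of 11 refits, and the highest adjusted p of the others was 0.118, without chow liver 3. Between chow and DT livers the rise was 2.85 (SE 0.49, adjusted p = 0.00454). Of 12 tested genes that regulate LPL or belong to its family, 3 rose from chow to saline livers and 2 fell. Pparg (1.93, adjusted p = 0.000125), a factor that drives lipid storage genes, Vldlr (3.13, 0.00381), a receptor for triglyceride-rich lipoproteins, and Angptl8 (2.64, 0.00388), an inhibitor of LPL, rose. Apoc2 (-2.19, 0.0258), the activator of LPL, and Angptl4 (-1.35, 0.0372), an inhibitor, fell. From saline to DT livers Pparg fell by 0.70 (0.00727), Lipc, the hepatic lipase, fell by 1.23 (0.0146) and Apoc2 rose by 1.60 (0.0318). Gpihbp1, which carries LPL to the capillary wall, differed by -0.02 (adjusted p = 0.917).

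Fabp5 (ENSMUSG00000027533, chromosome 3) encodes a cytosolic carrier of fatty acids of macrophages and epithelia. Chow livers had 4.09, 2.62 and 1.2 CPM, saline livers 4.03, 3.09, 5.78 and 3.66 CPM, and DT livers 14.6, 4.52, 10.3 and 11.8 CPM. DT liver 2 was again within the saline livers. The rise from saline to DT livers was 1.31 on the log2 scale (SE 0.39, adjusted p = 0.0359, edgeR's quasi-likelihood test). The call held in 4 of 11 leave-one-out refits, and the highest adjusted p was 0.101, without saline liver 2. Compared with chow livers Fabp5 rose in DT livers by 1.97 (SE 0.45, adjusted p = 0.0117), and saline and chow livers were not called different (0.65, SE 0.43, adjusted p = 0.434). The family split by member. Fabp4, the carrier of fat cells, macrophages and endothelium, was at 6.005 to 8.62 CPM in saline livers and 12.03 to 25.7 CPM in DT livers and rose by 1.40 (adjusted p = 0.00433). Fabp1, the carrier of hepatocytes, fell by 1.79 (0.0171) and the intestinal Fabp2 by 1.35 (0.0178). Fabp5 has near-identical copies, of which Fabp5l2 had 0 counts. Reads from copies not listed here could still be shared with it. The annotated copies of Cd63 and Cd9, Cd63-ps and Cd9-ps, had 187 and 6 counts over all livers.

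Atp6v0d2 (ENSMUSG00000028238, chromosome 4) encodes a subunit of the proton pump that acidifies lysosomes, made chiefly by macrophages and osteoclasts. Chow livers had 3.61, 2.42 and 4.50 CPM, saline livers 6.4, 2.60, 4.32 and 3.62 CPM, and DT livers 5.58, 5.33, 7.79 and 9.56 CPM. It moved least of the 8, and DT livers 1 and 2 were below saline liver 1. The difference of 0.74 on the log2 scale between DT and saline livers was not called (SE 0.30, adjusted p = 0.0957, edgeR's quasi-likelihood test). It was called without saline liver 1 (adjusted p = 0.0478) and without DT liver 2 (0.0443). The rise of 1.01 from chow to DT livers (SE 0.33, adjusted p = 0.0473) held in 4 of 11 leave-one-out refits, with a highest adjusted p of 0.167, without chow liver 2. Atp6v0d1, the form of the subunit that most cells make, was at 57.3 to 70.8 CPM in saline livers and 49.97 to 65.0 CPM in DT livers (-0.22, adjusted p = 0.169). Of 18 pump genes tested, 2 rose from saline to DT livers, a count near the 14.3% of all genes that rose. These were Atp6v0e2 (2.22, adjusted p = 0.0103) and Tcirg1 (0.70, 0.0140), a subunit of osteoclasts and macrophages. The MiT/TFE factors (Mitf, Tfeb, Tfe3 and Tfec) switch on lysosomal genes, Gpnmb and Atp6v0d2 among them. EdgeR called 0 of 4 of these in each of the 3 comparisons, as did DESeq2 and limma-voom, with 1, 1 and 0 at an unadjusted p below 0.05 for saline against chow, DT against saline and DT against chow.

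**Figure D2:**
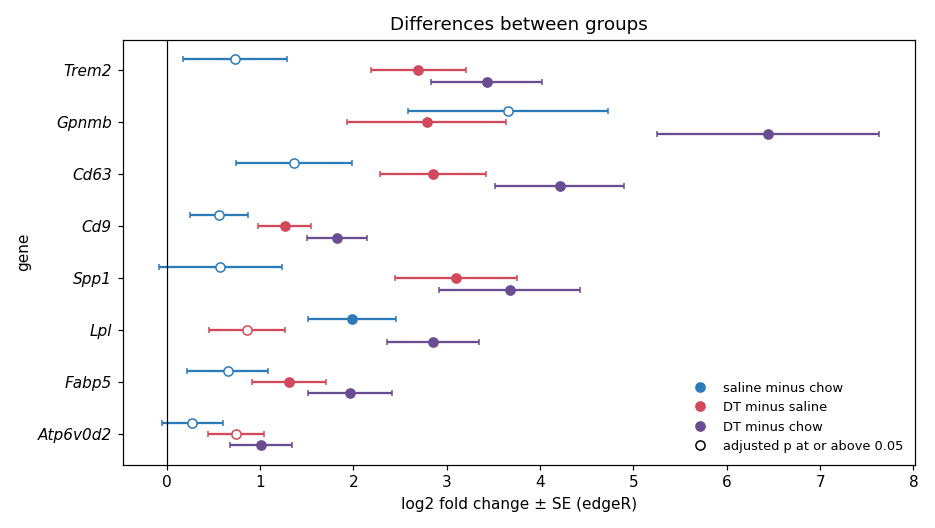
Log2 fold change of each gene from edgeR for the 3 comparisons, where filled circles have an adjusted p below 0.05 and open circles do not. The bars are the SE, derived from the fold change and the quasi-likelihood F statistic. Lpl is the 1 filled saline against chow circle, and Lpl and Atp6v0d2 are the 2 open DT against saline circles.

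Compared per kilobase of exon, using a merged exon length from the GENCODE M21 annotation of an earlier build, the order of the levels changed between groups. In chow livers the highest mean levels were those of Spp1 (9.24 CPM per kb) and Cd9 (7.42), and the lowest were those of Trem2 (0.210) and Gpnmb (0.119). In DT livers Spp1 was at 118 CPM per kb, followed by Cd9 (26.3), Lpl (13.2), Cd63 (11.6) and Gpnmb (10.5). Fabp5 (2.88), Atp6v0d2 (2.60) and Trem2 (2.27) were lowest. Lpl, Cd63 and Gpnmb are neighbours there whose SDs overlap. Gpnmb went from the lowest level in chow to the fifth in DT livers. Merged exons include every annotated isoform, so these levels depend on that annotation.

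The 8 genes were then set against 4 general macrophage genes of the same liver: Adgre1 (F4/80), Csf1r, Cd68 and Fcgr1 (CD64). Cd68 is also counted below among the further genes reported in lipid-associated macrophages, so the panel is not independent of them. The ratio is the log2 CPM of the gene minus the mean log2 CPM of the 4, and it is a description with no test. The panel means of DT and saline livers differed by 0.003 on the log2 scale, whereas the panel mean was 0.33 higher in saline than in chow livers and 0.33 higher in DT than in chow livers. From saline to DT livers, within the panel Adgre1 fell (-0.60, adjusted p = 0.0304, edgeR's quasi-likelihood test) and Cd68 rose (0.84, adjusted p = 0.0425). The panel was lowest in DT liver 2 among the WDA livers, at 3.97 against 4.27 to 4.78. For Trem2 the ratio was -3.65, -4.58, -2.98 and -4.66 in saline livers 1 to 4 and -0.94, -1.74, -1.34 and -0.68 in DT livers 1 to 4, a difference of 2.80. For Gpnmb it was -1.63, -3.05, 0.05 and -4.37 in saline livers and 1.78, 0.55, 1.44 and 1.77 in DT livers, a difference of 3.63. In both genes all DT livers were above all saline livers. The differences for Cd63 (2.75), Cd9 (1.16) and Fabp5 (1.22) were also without overlap, so that 5 of the 8 did not overlap, where 13.2% of all genes were higher without overlap. Spp1 (2.62), Lpl (0.68) and Atp6v0d2 (0.76) overlapped. By this ratio DT liver 2 was above all saline livers for 6 genes (Trem2, Gpnmb, Cd63, Cd9, Fabp5 and Atp6v0d2), and in CPM for Trem2 alone. From chow to saline livers the median ratio difference over all genes was -0.33, because the panel mean itself was 0.33 higher, and each value is read against that shift. Here Cd9 (0.25) and Lpl (1.66) did not overlap, 2 of 8 where 3.51% of all genes were higher without overlap. The other differences were 0.13 for Trem2, 2.30 for Gpnmb, 0.82 for Cd63, 0.21 for Spp1, 0.44 for Fabp5 and -0.09 for Atp6v0d2. Between DT and chow livers, 7 of 8 did not overlap (all but Atp6v0d2), where 11.2% of all genes were higher without overlap and the median ratio difference over all genes was -0.37.

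**Figure D3:**
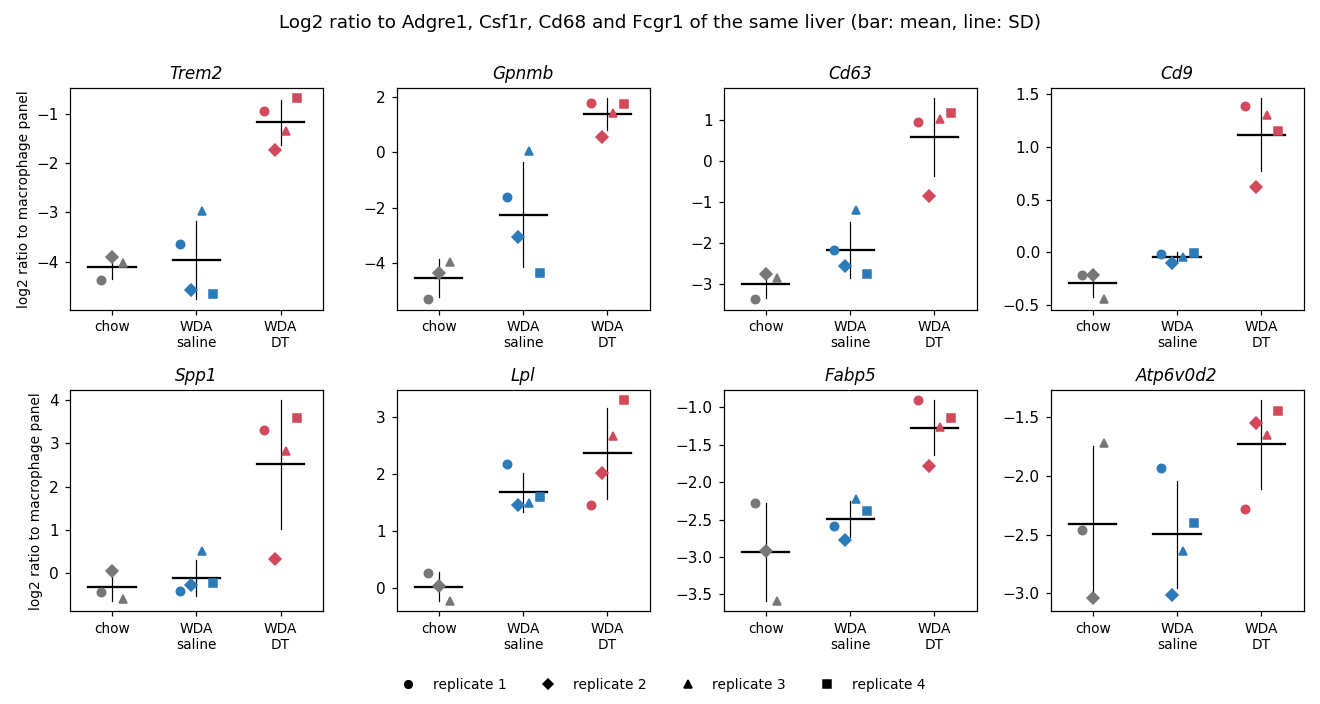
Log2 ratio of each gene to the mean of Adgre1, Csf1r, Cd68 and Fcgr1 in the same liver, with the bar for the mean and the line for the SD. DT liver 2 has the lowest ratio of the DT livers for Trem2, Gpnmb, Cd63, Cd9, Spp1 and Fabp5, and for Trem2, Gpnmb, Cd63, Cd9 and Fabp5 it still is above all saline livers.

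Of 20 further genes reported in lipid-associated macrophages, 6 rose from saline to DT livers and 2 fell, with a median log2 fold change of 0.54 against 0.02 over all genes. Syngr1 (2.58, adjusted p = 0.00753, edgeR's quasi-likelihood test), Itgax (2.62, 0.0127), the CD11c integrin, and Lgals3 (1.31, 0.0177), the lectin galectin-3, rose. Lipa, the lysosomal acid lipase (-0.54, 0.0118), and Plin2, the coat protein of lipid droplets (-0.67, 0.0189), fell. From chow to saline livers 2 of the 20 rose, the scavenger receptor Cd36 (1.87, 0.00100) and the elastase Mmp12 (4.53, 0.0176), and from chow to DT livers 12 rose and 1 fell.

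Markers of other cells moved in the same livers. All 10 cholangiocyte markers rose from saline to DT livers, among them Krt19 (4.53, adjusted p = 0.00563) and Sox9 (2.96, 0.00577). Their summed level was 27.2 to 43.4 CPM in chow livers, 20.7 to 24.7 in saline livers and 127, 29.7, 85.2 and 141 CPM in DT livers 1 to 4, with Cftr and Sctr at 0 counts in DT liver 2. DT liver 2 was the lowest DT liver in this sum, as it was for each of the 8 genes. It was also the lowest DT liver in the stellate, monocyte and pan-macrophage sums given below (342, 101 and 378 CPM). In the Kupffer cell and hepatocyte sums it was the highest DT liver. Of 10 stellate cell and myofibroblast markers 7 rose, and the sum was 185 to 232 CPM in chow, 223 to 428 in saline and 342 to 735 in DT livers. Saline liver 3, the highest saline liver for 6 of the 8 genes, had the 428. It was also the highest saline liver in the cholangiocyte, monocyte and pan-macrophage sums (24.7, 138 and 575 CPM). It was not the highest in the Kupffer cell, hepatocyte or adipocyte sums. Of 8 monocyte markers tested 2 rose, Cx3cr1 (3.23, 0.00673) and Itgam (2.03, 0.00921), where 14.3% of all genes rose. The sum of all 9 was 53.2 to 96.2 CPM in chow, 56.0 to 138 in saline and 101 to 274 in DT livers. Of the monocyte markers S100a4 was near 0 in all groups, with at most 11 counts in a liver. The dendritic cell sum was 9.07 to 10.6 CPM in saline livers and 17.1, 9.05, 17.5 and 21.2 CPM in DT livers 1 to 4. For neutrophils it was 3.32 to 5.66 CPM and 7.03, 3.72, 12.4 and 9.60 CPM. For T and NK cells it was 4.11 to 7.48 CPM and 12.3, 5.64, 8.27 and 7.38 CPM. DT liver 2 was again the lowest DT liver. In each of these lists 1 gene rose, of 6, 5 and 7 tested. The part of all these cells in the levels of the 8 genes was not tested.

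The sum of 9 pan-macrophage genes was 420 to 545 CPM in chow, 413 to 575 in saline and 378 to 534 in DT livers. That of 11 Kupffer cell genes was 590 to 730, 572 to 684 and 352 to 491 CPM. From saline to DT livers 7 of the 11 fell and 0 rose, where 1298 of the 17038 genes tested fell. Timd4, a marker of long-resident Kupffer cells, was at 7.68 to 10.7 CPM in saline livers and at 0.627, 0.749, 0.169 and 0.133 CPM in DT livers. All DT livers were thus far below the saline livers in Timd4, and DT liver 2 was the highest of the 4. It also had the highest Kupffer cell sum of the DT livers, 491 CPM against 352 to 364 CPM in the others, and still lay below the 572 CPM of the lowest saline liver. Hepatocyte markers summed to 92763 to 107374 CPM in saline and 64175 to 89144 CPM in DT livers. B cell markers summed to 1.79 to 3.26 and 1.96 to 5.03 CPM, and endothelial markers to 257 to 272 and 209 to 235 CPM. Of the adipocyte genes, Lep was at 0 counts in all 11 livers, and Adipoq had at most 6 and Retn at most 2 counts. The sum of the 4 adipocyte genes, which also include Cfd, was 0.0773 to 0.369 CPM in chow, 9.03 to 61.3 in saline and 0.0597 to 12.9 in DT livers. Given the few counts of the others, the sum in saline livers was almost all Cfd. The part of fat cells in the Lpl levels was not tested.

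**Figure D4:**
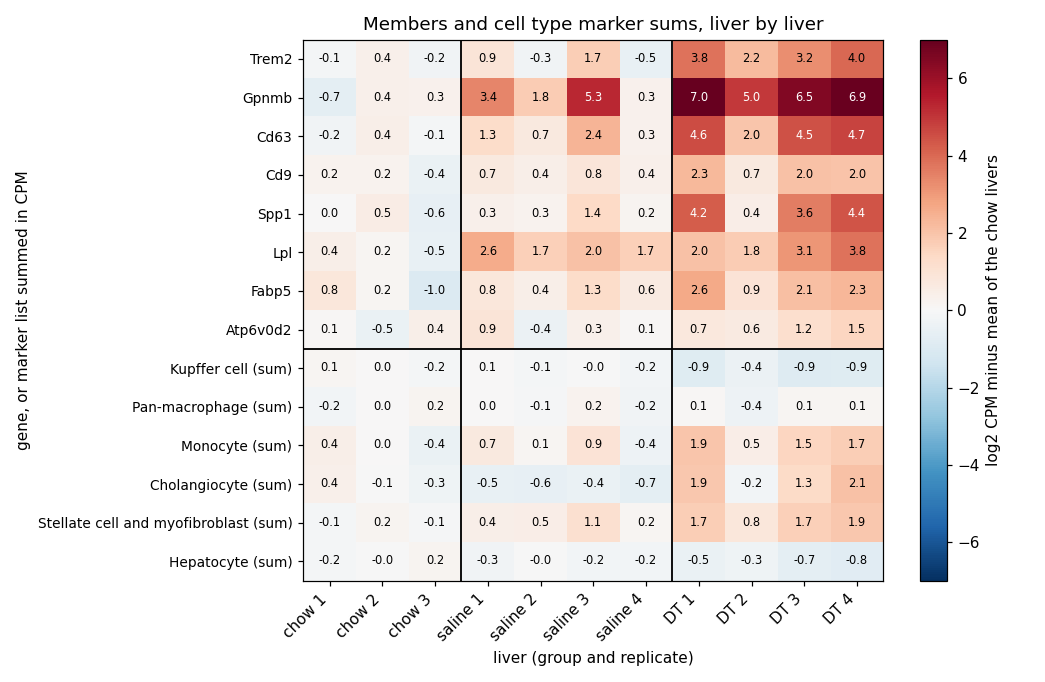
Log2 CPM of each gene, and of each marker list summed in CPM, minus the mean of the chow livers, for every liver, with red for higher and blue for lower. Above the line are the 8 genes and below it the marker sums. Columns DT 1, DT 3 and DT 4 are red for Gpnmb, Cd63, Spp1 and Trem2 and for the monocyte, cholangiocyte and stellate sums, and DT 2 is paler in each but the cholangiocyte sum, where it is on the blue side at -0.19.

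Without DT liver 2, 7 of the 8 genes rose from saline to DT livers, where 22.6% of all genes rose: Trem2 (2.95, adjusted p = 0.000938, edgeR's quasi-likelihood test), Gpnmb (3.07, 0.0228), Cd63 (3.19, 0.000532), Cd9 (1.51, 7.14e-05), Spp1 (3.48, 0.000157), Fabp5 (1.56, 0.00409) and Atp6v0d2 (0.85, 0.0443). Lpl was at 1.10 (0.0560). DT liver 2 was the lowest DT liver for each of the 8 genes and was singled out after its values were seen. Larger differences without it therefore follow from that choice. Without DT liver 1, 3 or 4 instead, 4 of the 8 rose each time, where 1908 of 16477, 1267 of 16396 and 1154 of 16411 genes rose. Trem2, Cd63, Cd9 and Spp1 were called in all 20 refits tried, the 11 leave-outs included. Against chow livers, the rise in DT livers was called in all 20 for each gene but Atp6v0d2.

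Each gene was also compared with all others by the root mean square difference of log2 CPM over the 11 livers, after centring each gene on the mean of its 3 group means. The nearest genes listed leave out those without a symbol or with only a provisional name (Gm with a number, or Rik). Ranks such as the 9th and the medians count all genes tested. Nearest to Trem2 were Cbr3 (0.37), Il21r (0.39), Tgfb3 (0.40), Osbpl6 (0.44) and Tmem119 (0.44), where the median over all genes was 1.66, and Cd63 was the 9th nearest (0.46). Nearest to Gpnmb were Sprr1a (0.75), H2-M2 (0.86), Egr2 (1.01), Ly6d (1.02) and Adam8 (1.02), with a median of 2.85. Nearest to Cd63 were Fam180a (0.27), Col1a1 (0.31), Tgfb3 (0.34), Col6a3 (0.35) and Gja5 (0.39), with a median of 1.88. For Spp1 they were Mrc2 (0.29), Mmp2, Cd24a, Col6a3 and Sparcl1 (each 0.30), with a median of 1.79. Col1a1 and Col6a3 encode collagen chains and Mmp2 a matrix protease, while Cd24a is a surface protein of epithelia and leukocytes. Nearest to Cd9 were Lbh, Vstm4, Sirpa, Ly6e and Prelp (0.16 to 0.17, median 0.94), and to Fabp5 Irag1, Cd83, Brd3os, Ly6e and Atp8b5 (0.25 to 0.27, median 1.08), with Cd9 the 6th nearest to Fabp5. Lpl had Ifi44, Gramd1b, Runx1t1, Cenpf and Psat1 (0.38 to 0.45, median 1.30), and Atp6v0d2 had Foxd2os, Sema3f, Hip1, Lrrc27 and Arid5a (0.24 to 0.29, median 0.73). This is a description over libraries that share the same groups, and genes with a large change have larger distances.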

How the data were processed

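Raw counts per gene were deposited by the authors for 11 livers. The submitters' processing notes name FastQC, STAR, featureCounts and GRCm39 per the labels. Their versions, annotation, strand setting and treatment of mates are not given in the sources used here. The extraction text of the labels describes CD45-positive cells for single-cell work, and the sample labels name whole liver tissue.

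Genes were kept with edgeR's filterByExpr (17038 of the 28842 with any count) and scaled by TMM. One mean per group was fitted to all 11 livers with edgeR's robust quasi-likelihood model in edgeR 4.0.16 under R 4.3.3 (limma was 3.58.1), with two-sided tests and Benjamini-Hochberg adjustment over all genes at 0.05. Each SE is the size of the log2 fold change divided by the square root of the quasi-likelihood F statistic, as edgeR gives none. Log2 CPM used a prior count of 2. Fits were tested on simulated data. The members and the gene lists were chosen with earlier results of these data known. Named genes are the 8, Clec4f, up to 4 genes with the smallest p per list, the 5 nearest genes and the nearest paralogues. No liver was left out of the reported fits, and no libraries were copies. Alternatives were other scalings, DESeq2 1.42.0, limma-voom, other filters, only the compared groups, the replicate number as a block, halved counts and each liver left out.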

Additional observations from a re-analysis of the deposited data

Results flagged for a closer look

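In groups of 4 livers, 32 sets of values were examined for a liver far from the other 3, by the ratio of its gap to the range of the group against Dixon's critical value. Chance marks about 1 in 20 groups. The Spp1 level of saline liver 3, 38.6 CPM, stood apart from the other saline livers with a ratio of 0.912. The log2 ratio of Cd63 to the macrophage panel in DT liver 2, -0.84, stood apart from the other DT livers with a ratio of 0.896.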

How the results depend on the processing

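Over all alternatives no member's fold change changed sign. From chow to saline livers, 1 of the 8 genes was called, 2 with DESeq2, 0 without a filter, 0 with the replicate block and 0 to 2 when 1 liver was left out. Over all genes, 950 were called in that comparison, 1721 with DESeq2, 3105 with a fit of the compared groups alone, 559 with the replicate block and 287 to 1924 with 1 liver left out. From saline to DT livers 3734 genes were called, 5629 with total count scaling, 2303 with only the compared groups and 1786 to 6824 with 1 liver left out (6824 without DT liver 2), and 4 to 7 of the 8 genes were called with 1 liver left out. Without a filter 4 of the 8 were called there, where 2997 of all 28842 genes were. With only the compared groups it was 5 of the 8. From chow to DT livers 3919 genes were called, 6536 with total count scaling, 2089 with only the compared groups, 2210 with the replicate block and 1786 to 6834 with 1 liver left out (6834 without DT liver 2). Total count scaling moved the median log2 fold change of all genes to 0.13, 0.36 and 0.44 in the 3 comparisons, and the share of called genes that were higher from 43.9% to 67.0%, from 65.2% to 92.1% and from 64.5% to 94.8%. With limma-voom that share was 53.1% from saline to DT livers and 50.6% from chow to DT livers. With total count scaling Atp6v0d2 was called from saline to DT livers (1.10, adjusted p = 0.0303, edgeR). Same-numbered livers had correlations of -0.16 to 0.18 over 10 pairs, 2 of them over 0.1. Differently numbered pairs ran from -0.26 to 0.22. With so few livers these values cannot decide whether a shared number stands for a shared batch. With the replicate block 5 of the 8 genes were called from saline to DT livers and 7 from chow to DT livers. Fold changes of single genes kept their side of the threshold in 437 refits, lost the call in 38 and gained it in 5. With limma-voom 1 of 11 TREM2 signalling genes, 1 of 9 osteopontin receptor genes, 2 of 10 tetraspanins and 3 of 10 cholangiocyte markers were called from saline to DT livers, and without DT liver 2 these were 7, 4, 5 and 10. The causes of these changes were not tested. Counts of 1 to 20 were mostly even (76.6% to 81.5% per library), so independent fragments may be fewer than counts, and halved counts ended no call in DT against saline livers.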
